A study of Mus musculus with 3 samples.

Results

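The genes described here encode the proteins of the mitochondrial respiratory chain. They were taken from the EpH4-PR arrays by symbol: names that begin with Ndufa, Ndufb, Ndufc, Ndufs or Ndufv, the 4 succinate dehydrogenase genes, names that begin with Uqcr, Cox genes numbered 4 to 8 whose number is followed by a, b, c or a digit, names that begin with Atp5, and Cyc1 and Cycs. The rule found 75 genes on 112 probes, of 29273 gene names on 41174 probes. A probe was called measured where each array's spot stood well above background for EpH4-PR and for reference RNA alike, which held for 73 of the 75 genes and 99 of the 112 probes, and for 25721 probes of the whole array. No value of the arrays entered the rule.

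EpH4 is a mouse mammary epithelial cell line, and EpH4-PR is a derivative stably transfected with the progesterone receptor, from which clones were selected. The cells were grown in DMEM with 10% serum and the selection drug G418 to about 75% confluence, with no hormone named. On each of 3 arrays EpH4-PR RNA was labelled with Cy5 and hybridised against one commercial mouse standard RNA labelled with Cy3. The dyes were not swapped and the composition of the standard is not given in the labels, so every value is a level of EpH4-PR RNA over that reference. A dye effect and a difference between the RNAs cannot be told apart. Only EpH4-PR arrays were analysed here, and none of the parental line or of the empty-vector line EpH4-EV that the paper names. The labels do not say that the 3 samples were separate cultures, so the p-values measure only the spread between these arrays.

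Respiratory chain complexes sit in the inner mitochondrial membrane and pass electrons from NADH and succinate to oxygen while building a proton gradient. Complex I takes electrons from NADH, complex II from succinate, complex III hands them to the small carrier cytochrome c, complex IV reduces oxygen, and complex V uses the gradient to make ATP. Most subunits are encoded in the nucleus and a few catalytic ones in mitochondrial DNA, and some complex IV subunits exist as a broadly expressed and a muscle isoform.

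The nuclear factors NRF1, the ETS family member GABP, YY1 and SP1 are known for binding near the starts of such genes. Windows of 300 bases, 250 before and 50 after the start, were read from RefSeq (GRCm38.p6) for 63 of the 75 genes, 68 windows in all. Genes without a listed window include Ndufa2, Ndufb9, Ndufs1, Sdhc, Cyc1, Uqcrb, Uqcrc2, Cox6a2, Cox6c, Cox8c and Atp5a1. The NRF1-type letters GCGCANGCG (N is any base), searched on both strands like every pattern here, occurred in 21 of the 68 windows (30.9%) and in 6.25% of the 32851 windows of all genes. The YY1-type letters AAGATGGC occurred in 10 windows (14.7%, against 2.75% of all), the ETS-type letters CCGGAAGT in 5 (7.35%, against 3.89%), and the SP1-type letters GGGCGG in 27 (39.7%, against 35.7%). The member windows also held more G and C, with a median of 57.5% against 52.7%, and more CpG pairs, with a median of 19 against 7. These shares describe letters, not binding.

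These 5 windows are printed because their genes carry the contrasts described here: Sdha and Uqcrc1 lay high among the members, Uqcrh lay lowest in complex III, and Cox7a2 and Cox7a1 are a broadly expressed and a muscle isoform. Capitals mark matches of the NRF1-type, ETS-type and YY1-type letters on either strand. Sdha lies at chr13:74350191-74350490 on the minus strand and holds 3 NRF1-type matches, Uqcrc1 at chr9:108936398-108936697 on the plus strand holds NRF1-type matches just after its start, and Uqcrh at chr4:116075021-116075320 on the minus strand holds 1 ETS-type match. Cox7a2, at chr9:79759804-79760103 on the minus strand, and Cox7a1, at chr7:30183921-30184220 on the plus strand, hold none of the 3 capitalised patterns, and their windows differ in CpG pairs, 20 against 7.
Sdha: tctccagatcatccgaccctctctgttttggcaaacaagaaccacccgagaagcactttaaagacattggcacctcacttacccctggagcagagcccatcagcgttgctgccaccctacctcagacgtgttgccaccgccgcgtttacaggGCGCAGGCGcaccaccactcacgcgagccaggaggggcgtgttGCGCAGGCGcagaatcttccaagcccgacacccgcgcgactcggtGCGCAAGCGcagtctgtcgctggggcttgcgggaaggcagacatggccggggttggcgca
Uqcrc1: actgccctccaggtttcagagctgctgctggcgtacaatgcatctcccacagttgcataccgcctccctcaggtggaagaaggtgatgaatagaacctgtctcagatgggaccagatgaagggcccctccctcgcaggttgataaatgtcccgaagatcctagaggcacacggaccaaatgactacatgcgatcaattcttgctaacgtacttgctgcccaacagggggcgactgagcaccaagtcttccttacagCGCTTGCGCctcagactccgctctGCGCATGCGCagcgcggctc
Uqcrh: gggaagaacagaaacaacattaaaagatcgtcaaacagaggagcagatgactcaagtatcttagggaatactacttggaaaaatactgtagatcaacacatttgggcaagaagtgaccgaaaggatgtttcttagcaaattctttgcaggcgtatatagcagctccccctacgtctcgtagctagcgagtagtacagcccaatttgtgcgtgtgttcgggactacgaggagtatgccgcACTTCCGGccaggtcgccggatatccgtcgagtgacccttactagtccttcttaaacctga
Cox7a2: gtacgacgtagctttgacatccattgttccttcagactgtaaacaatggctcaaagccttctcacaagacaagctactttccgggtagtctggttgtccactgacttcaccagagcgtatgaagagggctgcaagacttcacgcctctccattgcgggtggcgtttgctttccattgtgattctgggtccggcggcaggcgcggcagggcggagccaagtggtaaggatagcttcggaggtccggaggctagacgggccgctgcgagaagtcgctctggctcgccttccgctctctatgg
Cox7a1: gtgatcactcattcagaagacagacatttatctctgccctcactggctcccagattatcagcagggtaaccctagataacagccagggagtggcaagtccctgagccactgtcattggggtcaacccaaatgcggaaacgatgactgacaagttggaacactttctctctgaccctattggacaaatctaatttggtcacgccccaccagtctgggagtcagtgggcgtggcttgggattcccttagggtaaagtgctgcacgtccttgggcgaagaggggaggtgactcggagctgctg

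The arrays were close to each other. Each held 43790 spots, the median raw intensity ranged from 93.8 to 113 in Cy5 and from 108 to 142 in Cy3, and the correlation of log2 ratios between arrays across probes was 0.923 to 0.952. Epithelial markers were high over the reference, with 9 of 10 probes called higher (Cdh1 4.29, Krt19 -2.62), and mesenchymal markers were low, with 0 of 16 probes higher in limma (0 at an unadjusted p under 0.05 or by the methods' t-test, 2 after median centring) and 13 lower. Of muscle markers 1 probe was higher and 3 were lower of 11, and of blood cell markers 1 was higher and 4 were lower of 11. Over all probes 25.7% were called higher and 24.6% lower.

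Respiratory chain mRNA was bright and, relative to probes of like brightness, slightly low in EpH4-PR RNA, with complex IV lowest. Brightness is given as the mean log2 intensity of both channels: its median was 10.96 over the 99 measured member probes and 7.30 over all measured probes. The log2 ratio of Cy5 over Cy3 rose with brightness on these arrays, so the zero of the scale depends on how each array was normalised. Loess sets 0 near the typical probe of the same brightness, except among the brightest probes, where the median of all probes in a step of brightness was -0.33 to -0.59, and centring on the median sets 0 at the typical probe of the whole array, which moved the median of all measured probes from 0.04 to 0.42. The median of the measured member probes was -0.19 after loess and 1.12 after median centring. Each member probe was then set against the median of all measured probes in its own step of brightness, 0.5 wide. The median distance was -0.18 after loess and -0.19 after median centring. These values are close by construction, because the scales differ mainly by a trend with brightness that the steps remove. Values below are loess log2 ratios unless another scale is named, and "higher" or "lower" means above or below 0 on that scale at an adjusted p under 0.05 in limma.

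**Figure D1:**
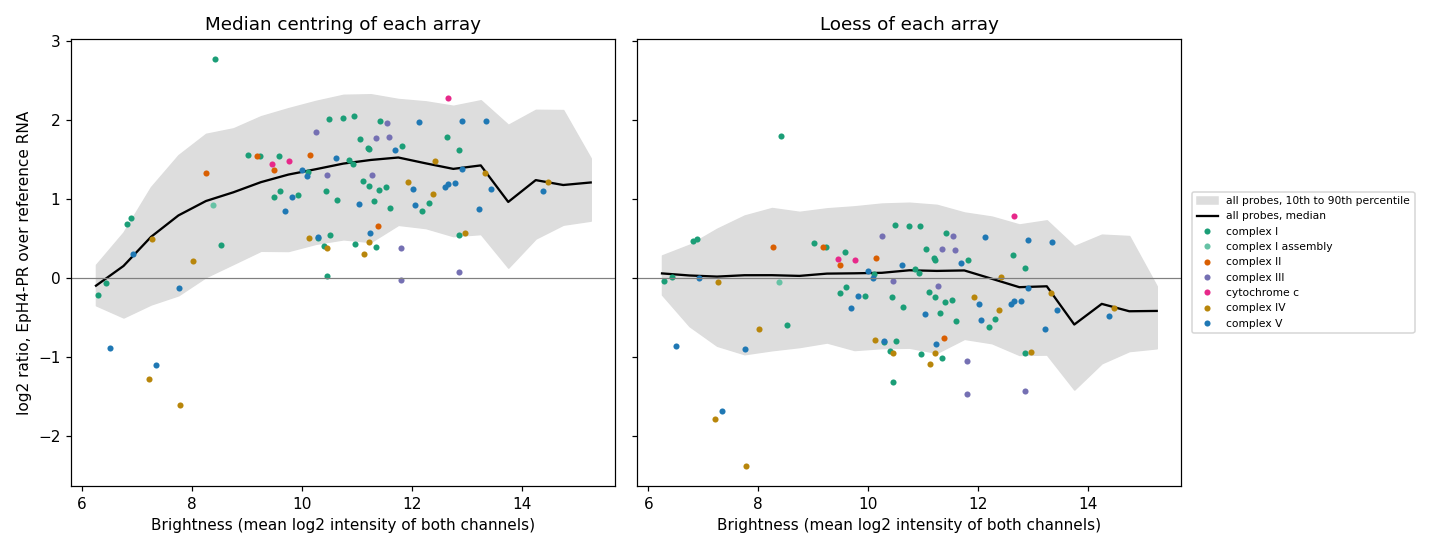
EpH4-PR to reference log2 ratio (vertical axis) against brightness (horizontal axis, mean log2 intensity of both channels) for the 99 measured member probes, coloured by complex, with each array centred on its median (left) or normalised by loess (right). The line and the band are the median and the 10th to 90th percentiles of all measured probes in steps of brightness. On the left most member probes lie above 0 along with probes of like brightness (91 of 99), on the right 39 of 99 do.

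Of the 112 member probes 31 were higher (27.7%, against 25.7% of all 41174 probes) and 54 were lower (48.2%, against 24.6% of all). After median centring the split turned to 89 higher and 15 lower, and no share of all probes called was taken on that scale. There 2333 of the 2431 measured probes between the quartiles of the members' brightness (9.72 to 11.87) lay above 0. Among measured probes 29 of 99 members were higher (29.3%, against 34.1% of all measured probes) and 52 were lower (52.5%, against 28.8%). A log2 ratio of at least 1 was reached by 1 member above 0, against 2.26% of all probes, and by 9 members below 0, or 8.04%, against 3.83% of all probes. The median of the measured members was below 0 on each array, with -0.16, -0.19 and -0.23. By gene, all measured probes of 16 genes were higher and all those of 39 genes were lower on the loess scale. This count by gene was not made over the whole array, so no share stands beside it. Another 16 genes were called in part or not at all, Atp5a1 and Atp5b had probes called in opposite directions, and Cox8b and Cox8c had no measured probe.

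**Figure D2:**
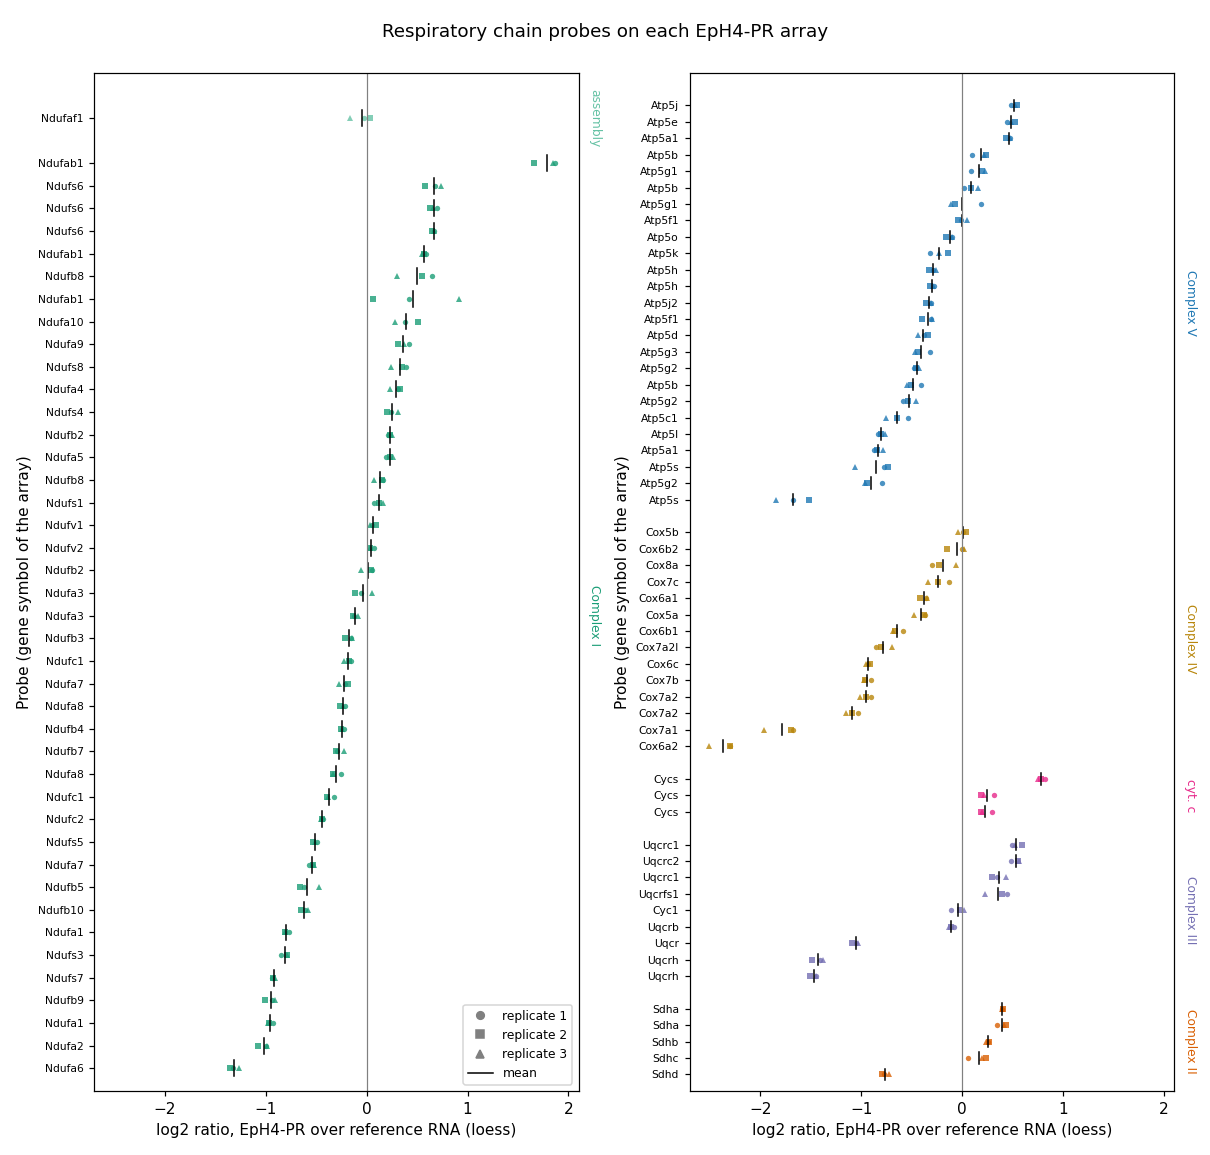
Loess EpH4-PR to reference log2 ratio (horizontal axis) for measured member probes (vertical axis), grouped by complex and sorted by the mean. Points are the 3 arrays and the black bar is their mean. Probes with Cox symbols, grouped as complex IV, lie at or below 0, and Ndufa4 is drawn with complex I. Complex III spreads from 0.54 (Uqcrc1) to -1.47 (Uqcrh) with Cyc1 and Uqcrb near 0. After median centring 12 of the 14 complex IV probes lie above 0.

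The complexes differed in where their probes lay. For the counts called, the shares over all probes were 25.7% higher and 24.6% lower. The median was 0.25 for complex II (5 measured probes), 0.24 for cytochrome c (3 probes), -0.04 for complex III (9 probes), -0.08 for complex I (42 probes), -0.33 for complex V (25 probes) and -0.72 for complex IV (14 probes). After median centring the same medians were 1.37, 1.48, 1.30, 1.11, 1.12 and 0.50, so complex IV stayed lowest on both scales and cytochrome c and complex II stayed high. A list of core genes, made up of Ndufs and Ndufv subunits of the catalytic arms of complex I, the 4 complex II genes, Cyc1, Uqcrfs1, Cycs and the ATPase head and central stalk, had a median of 0.17 over 25 measured probes, with 12 of 28 probes higher and 8 lower. Without the carrier Cycs the median was 0.10, with 9 of 25 higher and 8 lower. The other members, Uqcrc1 and Uqcrc2 among them, had a median of -0.26 over 74 measured probes, with 19 of 84 higher and 46 lower, and the medians of the core list and the other members were 1.44 and 1.04 after median centring. The core list holds no complex IV gene but all of complex II and cytochrome c, so its mix of complexes differs from that of the other members. Within complex I the core and other medians were 0.06 and -0.17, within complex III 0.16 and -0.11, and within complex V -0.15 and -0.33. Members share arrays and are not replicates, so these medians carry no test.

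Complex I had 14 probes higher and 21 lower of 47, and with median centring 40 of its 42 measured probes lay above 0. Its highest probe was one for Ndufab1, the mitochondrial acyl carrier protein that also serves fatty acid and lipoic acid synthesis. That probe read 1.87, 1.65 and 1.85 on the 3 arrays, a mean of 1.79 ± 0.12 (SD, n = 3, limma adjusted p = 3.72e-05). A second Ndufab1 probe read 0.57 ± 0.02, and another, dim one read 0.42, 0.06 and 0.91, the widest spread of any measured member (SD 0.43). The 3 values of that dim probe overlap those of the second, and its mean did not pass the test.

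Ndufs6, an accessory subunit near the NADH-oxidising end of the complex, was high on each of its 3 probes. They gave means of 0.66, 0.66 and 0.67, and every array read between 0.58 and 0.74 on each of them. Of the core subunits, the iron-sulfur subunit Ndufs8 read 0.39, 0.35 and 0.24 (mean 0.33 ± 0.08, adjusted p = 0.00461). The neighbouring iron-sulfur subunit Ndufs7 read -0.93, -0.93 and -0.91 (mean -0.92 ± 0.01, adjusted p = 7.42e-05) and Ndufs3, of the same arm, -0.85, -0.79 and -0.79 (mean -0.81 ± 0.03). After median centring Ndufs7 and Ndufs3 turned to 0.41 and 0.51, while Ndufs8 stood at 1.55, so Ndufs8 stayed above both by 1 log2 unit or more on either scale. Ndufv1, which binds FMN and NADH, and Ndufv2, its iron-sulfur partner, had means of 0.06 and 0.04, and Ndufs1, the largest iron-sulfur subunit, 0.12, with none of these measured probes past the test.

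The lowest complex I probes belonged to small accessory subunits. Ndufa6 read -1.33, -1.35 and -1.26 (mean -1.31 ± 0.05, adjusted p = 3.76e-05), and its median-centred mean was 0.02. Ndufa2 read -0.99, -1.07 and -0.99 (mean -1.02 ± 0.05), and both probes of Ndufa1 were lower, with means of -0.96 and -0.80. These 2 genes too turned above 0 with median centring, to 0.39 for Ndufa2 and to 0.43 and 0.55 for the Ndufa1 probes. Ndufa4, named as a complex I gene but now known as a subunit associated with complex IV, was higher, with a mean of 0.29 ± 0.05. Ndufaf1, an assembly factor rather than a subunit, stood at -0.05 ± 0.10 and did not pass the test.

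Complex II is encoded by 4 genes, all nuclear. Sdha, the flavoprotein that oxidises succinate, was higher on both probes, with readings of 0.34, 0.43 and 0.41 on one and 0.39, 0.41 and 0.39 on the other (means 0.39 and 0.40, adjusted p = 0.00153 and 0.00114). Sdhb, the iron-sulfur subunit, had a mean of 0.25 ± 0.02 and was also higher. The membrane anchors went separate ways: Sdhc read 0.17 ± 0.09 (adjusted p = 0.0515), while Sdhd read -0.77, -0.80 and -0.72 (mean -0.76 ± 0.04, adjusted p = 0.000147). Sdhd turned to 0.65 with median centring, when Sdhb stood at 1.55.

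Complex III had genes well above and well below 0. The large matrix-side proteins Uqcrc1 (0.54 and 0.36 on 2 probes) and Uqcrc2 (0.53) and the Rieske iron-sulfur protein Uqcrfs1 (0.35) were all higher. The hinge protein Uqcrh, which helps cytochrome c to dock, read -1.45, -1.51 and -1.45 on one probe and -1.41, -1.49 and -1.38 on the other, with means of -1.47 and -1.42 (adjusted p = 2.86e-05 and 3.47e-05). Uqcr, the small subunit now named Uqcr11, had a mean of -1.06 ± 0.03. With median centring Uqcr moved to 0.38 and the Uqcrh probes to -0.03 and 0.07. The distance between the 3 high genes and the 2 low genes, a pair of groups chosen after their values were seen, was 1.75, 1.82 and 1.73 log2 units on the 3 arrays (mean 1.76 ± 0.05) and stayed between 1.70 and 1.78 under every processing alternative tried. Cyc1, the cytochrome c1 haem protein, and Uqcrb, a quinone-binding protein, lay between them at -0.04 and -0.11 and did not pass the test.

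Cycs, the somatic cytochrome c, was higher on each of its 3 probes. One read 0.82, 0.78 and 0.76 (mean 0.78 ± 0.03, adjusted p = 0.000129), and the others had means of 0.24 ± 0.07 and 0.23 ± 0.06. The first probe's arrays did not overlap those of the others.

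In complex IV, 0 of 19 probes were higher in limma and 13 were lower, and 0 were higher at an unadjusted p under 0.05, 0 by the methods' t-test and 12 after median centring. In limma 25.7% of all probes were higher and 24.6% were lower. The ubiquitously expressed subunits ranged from Cox5b (0.01 ± 0.04), Cox8a (-0.19 ± 0.12) and Cox7c (-0.24 ± 0.10) to Cox7b (-0.95 ± 0.04, the measured one of 3 probes), Cox6c (-0.93 ± 0.02) and Cox7a2. With median centring 12 of the 14 measured probes lay above 0. The median distance of the complex IV probes from the median of all probes in their step of brightness was -0.75 after loess. With median centring it was -0.79, close by construction. Among them Cox6a1, one of the brightest, lay only -0.05 from its step after loess. Cox4i1, the broadly expressed form of the largest nuclear-encoded subunit, lies outside the symbol rule, and its mean was -1.05 (adjusted p = 6.99e-05; 0.46 with median centring).

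The muscle isoforms were the lowest of the complex on both scales. Cox6a2, the heart and skeletal muscle form, read -2.31, -2.30 and -2.51 (mean -2.37 ± 0.12, 5.18-fold lower, adjusted p = 2.27e-05), the lowest value of all measured members. The size for this dim probe moved with the processing, to -3.13 with an offset of 0 and -3.19 with the scanner software's ratio. Its broadly expressed partner Cox6a1 read -0.36, -0.41 and -0.35 (mean -0.37 ± 0.03). Cox7a1, the muscle form of the next subunit, read -1.68, -1.70 and -1.96 (mean -1.78 ± 0.16, adjusted p = 5.6e-05; -2.69 with an offset of 0 and -2.81 with the scanner software's ratio), and its partner Cox7a2 had means of -1.09 and -0.96 on 2 probes. With median centring Cox6a2 and Cox7a1 stayed below 0, at -1.60 and -1.28, while Cox6a1 turned to 1.21 and Cox7a2 to 0.31 and 0.38. In differences of log2 ratios, Cox6a1 lay above Cox6a2 by 2.00 ± 0.14 (1.92 to 3.12 over the processing alternatives) and Cox7a2 above Cox7a1 by 0.76 ± 0.11 (0.70 to 1.72). Both distances grew most with the scanner software's ratio, with an offset of 0 and with median centring, where the dim muscle probes read lower against their partners. These are differences of ratios over the reference and not of amounts of mRNA, and they were chosen after their values were seen.

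Of the muscle markers Acta1, skeletal muscle actin, was also low over the reference, at -2.09, and Actc1, cardiac actin, stood at 0.22, and their part in the isoform ratios was not tested. The testis form Cox6b2 did not pass the test (-0.05 ± 0.09), while its partner Cox6b1 was lower (-0.65 ± 0.05, but 0.21 with median centring). Cox8c was not well above background in EpH4-PR RNA on any array and was above it in the reference on all 3, with readings of -0.88, -0.75 and -0.31. By means over the arrays this put it at least 1.57-fold lower (adjusted p = 0.00862). This bound is the fitted fold itself, because the probe's own dim signal was higher than the lowest signal well above background. The third array alone fell short of it. Cox8b, the muscle form of that subunit, was above background in EpH4-PR RNA on 1 array and in the reference on 2.

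**Figure D3:**
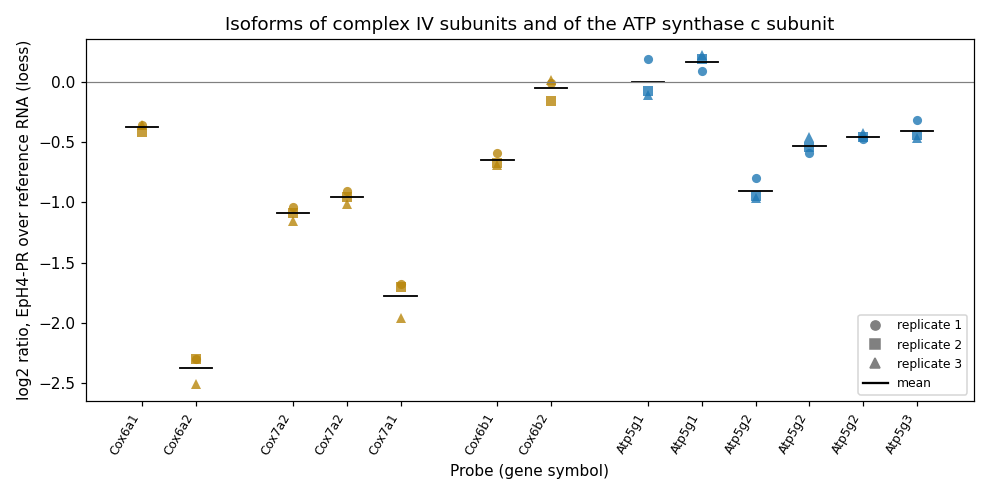
Loess EpH4-PR to reference log2 ratio (vertical axis) for probes of paired isoforms (horizontal axis), with the 3 arrays as points and their mean as a bar. Cox6a2 at -2.37 and Cox7a1 at -1.78 lie below their partners on each array, as they also do with median centring, whereas Cox6b2 lies above Cox6b1.

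Complex V, the ATP synthase, had 6 probes higher and 16 lower of 26, and with median centring 22 of its 25 measured probes lay above 0. Shares over all probes were 25.7% higher and 24.6% lower. In the central stalk, Atp5e, the epsilon subunit, was higher at 0.48 ± 0.04. Of the same stalk, Atp5c1, the gamma subunit, read -0.54, -0.65 and -0.75 (mean -0.65 ± 0.11) and Atp5d, the delta subunit, had a mean of -0.39 ± 0.05. Atp5j, the coupling factor of the peripheral stalk, was the highest at 0.52 ± 0.03 (adjusted p = 0.000478). Atp5c1 and Atp5d turned to 0.87 and 0.85 with median centring, below the 1.98 of Atp5e. The lowest was Atp5s, a gene now named Dmac2l, with -1.68, -1.51 and -1.84 on one probe and -0.77, -0.73 and -1.07 on the other (means -1.68 ± 0.16 and -0.86 ± 0.18), both still below 0 with median centring at -1.11 and -0.88. These dim probes read -2.44 and -1.91 with an offset of 0 and -2.54 and -2.32 with the scanner software's ratio.

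On the loess scale the alpha and beta subunits gave no single direction. Atp5a1 read 0.48, 0.43 and 0.47 on one probe and -0.87, -0.84 and -0.78 on another, both past the test. Atp5b was called higher on one probe (0.18 ± 0.07), lower on another (-0.49 ± 0.07) and not called on the third (0.09 ± 0.07). The lower Atp5b probe was among the brightest members and lay only -0.16 from its step of brightness after loess. With median centring these Atp5b probes stood at 1.62, 1.09 and 1.37, and the Atp5a1 probes at 1.99 and 0.57. Probe positions in the transcripts are not in the files, and cross-hybridisation to gene copies was not tested. Among all 21 genes with several measured probes the median span was 0.18, 12 of them lay within 0.25, and the largest span was the 1.33 between the probes of Ndufab1.

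The membrane c ring that turns with proton flow is built from 1 protein encoded by 3 genes. Atp5g1 stood at 0.00 ± 0.16 and 0.17 ± 0.07 on its probes, of which the second was higher. All 3 probes of Atp5g2 were lower, at -0.45, -0.53 and -0.90, and Atp5g3 was lower at -0.41 ± 0.08. On the loess scale no array of Atp5g2 or Atp5g3 overlapped an array of Atp5g1. After median centring Atp5g3 (1.12) and 2 probes of Atp5g2 (0.94 and 0.93) stood above 0 and the remaining one at -0.13, against 0.30 and 1.52 for Atp5g1.

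Genes with an NRF1-type match in the promoter window did not stand higher than the rest. The median loess ratio was -0.33 over 20 genes with a match and -0.17 over 42 without. All measured probes were higher for 5 of the 20 genes with a match, Sdha and Uqcrc1 among them, and lower for 14, among them Ndufa6 and Uqcr, both of which turned above 0 with median centring. Of the 42 without a match 9 were higher and 21 lower. Over all measured probes 34.1% were higher and 28.8% lower, but shares of all genes by this rule were not taken. For YY1-type letters the medians were 0.08 over 10 genes with and -0.28 over 52 without, for ETS-type letters, found in Uqcrh, -0.81 over 5 and -0.23 over 57, and for SP1-type letters -0.12 over 26 and -0.28 over 36. These are descriptions over genes that share arrays, with no test.

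Other mitochondrial genes were set beside the members by the same fit. For comparison with the counts, 25.7% of all probes were higher and 24.6% were lower. Mitochondrial ribosomal proteins, which translate the chain subunits encoded in mitochondrial DNA, had 62 probes higher and 24 lower of 118. Their median was 0.20, from Mrpl15 (1.42 on one probe and 0.39 on another) to Mrpl24 (-1.06). Cytosolic ribosomal proteins, another set of abundant mRNAs, had 19 higher and 90 lower of 130 and a median of -0.43, from Rpl31 (1.16) to Rpl22 (-2.69). The members, at -0.19, lay between these sets, also with median centring, where the medians were 1.25 for the mitochondrial ribosomal set, 0.91 for the cytosolic one and 1.12 for the members. The sets differed in brightness, with medians of 9.44 for the mitochondrial ribosomal set, 10.96 for the members and 13.56 for the cytosolic set. The ribosomal sets were not set against their steps of brightness, so this order is not separated from brightness. Citrate cycle and pyruvate dehydrogenase probes divided evenly, with 9 higher and 11 lower of 30, from Suclg2, a succinyl-CoA ligase subunit (1.09 on one probe and -0.30 on the other), to Idh3g, an isocitrate dehydrogenase subunit (-1.0, or 0.36 with median centring).

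**Figure D4:**
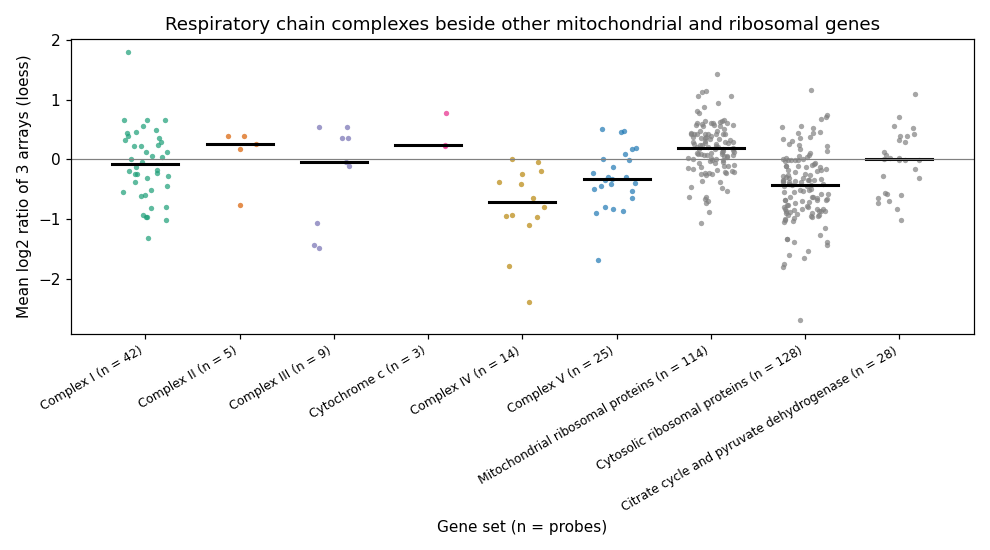
Mean loess log2 ratio of 3 arrays (vertical axis) for each measured probe of the respiratory chain complexes and of 3 other gene sets (horizontal axis, with the number of probes); black bars are medians. Complex IV has the lowest median at -0.72 and mitochondrial ribosomal proteins stand at 0.20; after median centring these medians are 0.50 and 1.25.

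Genes that deliver electrons to coenzyme Q or make it had 9 probes higher and 6 lower of 19, from Coq5, a coenzyme Q methyltransferase (0.60), to Sqrdl, the sulfide oxidase of mitochondria (-1.63). Assembly factors and chain genes outside the symbol rule had 9 higher and 10 lower of 30, with Cox4i1 lowest. Highest was one probe of Sdhaf2, an assembly factor that loads FAD onto Sdha, at 0.80. Other Sdhaf2 probes read 0.56 and 0.11, the last not called. Carriers, porins and uncoupling proteins had 7 higher and 2 lower of 17, from the porins Vdac3 (0.49) to Vdac2 (-0.65, or 0.60 with median centring). Genes for regulators of mitochondrial transcription had 12 higher and 1 lower of 20 and a median of 0.32. Beside all these counts, the shares over all probes were 25.7% higher and 24.6% lower. Among them Gabpa, the DNA-binding subunit of GABP, read 1.16 and 1.02 on 2 probes and -0.14 on another, the coactivator Pprc1 0.91, and Yy1 -0.45 (0.65 with median centring).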

How the data were processed

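The deposited files hold, for each array, raw spot intensity in both channels, local background and a log10 ratio of red over green, written by the authors with Agilent Feature Extraction 8.1.1.1. The mean spot intensity minus the local median background was corrected by normexp with an offset of 50 in limma 3.58.1 (R 4.3.3), taken to log2(Cy5/Cy3), normalised by loess within each array with control and outlier spots at weight 0, and averaged per probe. A model with an intercept was fitted over all 41174 non-control probes, moderated by eBayes and tested against 0, with Benjamini-Hochberg adjustment over all of them at 0.05. Array intensities give no counting error, so precision rests on having 3 arrays. The fit was tested on simulated data first.

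The members, gene lists and tests were chosen with earlier results of these data known. Named were, by rule, the 3 highest and 3 lowest measured probes of each complex, core subunits, isoforms and c ring genes, genes with probes called in opposite directions, the 3 probes of widest spread, and the extremes of each other list. Alternatives were median centring, an offset of 0, scaling between arrays, the median spot intensity, the scanner software's log ratio and outlier spots kept. Others were an intensity trend, a filter on dim probes, 1 value per gene, a plain t-test of each probe's ratios against 0, and leaving out each array. The paper's methods name Student's t-test for differences between groups and cite another study for the array analysis. A deposited table of the authors' fold changes, ratios and p-values for selected probes, between sides it does not name, was not used. The results of 1 member gene are not named here.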

Additional observations from a re-analysis of the deposited data

How the results depend on the processing

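The choice between loess and median centring decided most directions against 0. Shares of all probes called were not taken with median centring, where 18894 of all 25721 measured probes lay above 0. With median centring 89 member probes were higher and 15 lower, with 58 and 3 at a log2 ratio of at least 1, and the medians were 1.12 for all members, 1.11 for complex I, 0.92 for the assembly factor Ndufaf1, 1.37 for complex II, 1.30 for complex III, 1.48 for cytochrome c, 0.50 for complex IV and 1.12 for complex V. Of the 99 measured member probes 53 turned from below to above 0 with it, and 1 the other way. Among the probes singled out by the naming rule these were Ndufa1 0.43 (1 probe), Ndufa2 0.39, Ndufa6 0.022, Ndufs3 0.51, Ndufs7 0.41, Ndufaf1 0.92, Sdhd 0.65, Cyc1 1.30, Uqcr 0.38, Uqcrh 0.074 (1 probe), Cox6a1 1.21, Cox6b1 0.21, Cox6b2 0.49, Cox7a2 0.31 and 0.38, Cox8a 1.33, Atp5a1 0.57 (1 probe), Atp5b 1.09 (1 probe), Atp5c1 0.87, Atp5d 0.85, Atp5g2 0.93 and 0.94 (2 probes) and Atp5g3 1.12. The order of the members was kept better than the signs, with Spearman's rho against the loess order of 0.858 over the 99 measured probes, and 0.983 for the scanner software's ratio. With that ratio 2 probes were higher and 15 lower by at least 1, and the medians of complexes I, IV and V were -0.17, -0.79 and -0.22. With an offset of 0 they were -0.13, -0.84 and -0.28, with 2 probes higher by at least 1. With 1 value per gene the medians of complexes I, II, IV and V and of cytochrome c were -0.17, 0.21, -0.65, -0.26 and 0.42. The plain t-test after Benjamini-Hochberg called 19 higher.

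Leaving out 1 array at a time gave 24 to 29 probes higher and 46 to 54 lower (1 and 8 to 9 at a log2 ratio of at least 1), and medians of -0.19 to -0.18 for all members, -0.11 to -0.054 for complex I and -0.33 to -0.30 for complex V. Means that were near 0 changed sign: without an array Ndufaf1 ranged from -0.094 to 0.0051, one Sdhc probe from -0.12 to 0.0097, Cox5b from -0.012 to 0.028, Cox6b2 from -0.079 to 0.0068 and one Atp5g1 probe from -0.092 to 0.059. That Atp5g1 probe read -0.0071 with scaling between arrays and -0.020 with median spot intensities, Cox6b2 0.086 with the scanner software's ratio, and a dim Ndufv2 probe 0.048 with an offset of 0 and 0.37 with the scanner software's ratio. The cause was not tested. Cytosolic ribosomal symbols counted with 17 S6 kinase probes had 27 higher and 91 lower of 147 and a median of -0.38. The comparison by step of brightness, the core list without Cycs, the ribosomal set without kinases and the 3 distances between subunits and isoforms, and their values under each alternative, were chosen after seeing the data. No paired analysis was possible because there is 1 group, and no slide or scan block because each slide held 1 array. Signal over background limits the 13 member probes outside the measured set, and the shared reference limits every value to a ratio.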

Other observations

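The array also held probes for chain subunits encoded in mitochondrial DNA, outside the symbol rule. The log2 ratio of mt-Co2, a catalytic subunit of complex IV, was -1.51, -1.40 and -1.36 on the 3 arrays (mean -1.42 ± 0.08, limma adjusted p = 4.13e-05). For mt-Cytb, the cytochrome b of complex III, it was -1.14, -1.02 and -0.91 (mean -1.02 ± 0.11), and for mt-Nd4, a proton-pumping subunit of complex I, -0.97, -0.89 and -0.82 (mean -0.90 ± 0.08). The probes of mt-Atp6, the subunit of complex V that forms the proton channel with the c ring, gave -0.28 ± 0.07 and -0.61 ± 0.11. All 5 probes were lower after loess and stood above 0 with median centring, at 0.17 for mt-Co2, 0.46 for mt-Cytb, 0.60 for mt-Nd4 and 1.16 and 0.82 for mt-Atp6. They were not set against probes of like brightness, and loess left the medians of the brightest steps of all probes at -0.33 to -0.59.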
